A study of Mus musculus with 3 samples.

Results

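The colony-stimulating factors are secreted proteins that drive the survival, growth and maturation of myeloid cells, and 8 genes encode the ligands and receptor chains described here. They were taken by name as Csf1, Csf2 and Csf3, the ligand genes, and Csf1r, Csf2ra, Csf2rb, Csf2rb2 and Csf3r, the receptor genes, and were found through the RefSeq accessions of the array's probes. All 8 had probes, 14 in all, and all 8 were among the 13181 genes that passed the filter on dim probes, out of 20660 genes with a named probe. The 14 probes are among 55681 on the array. Csf2 and Csf3 passed that filter through the channels of treated cells alone.

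The values come from bone marrow-derived macrophages of C57BL/6J mice, cells that had matured for days in medium containing 30% supernatant of L929 cells, a fibroblast line that secretes CSF-1. Adiponectin-treated macrophages had received adiponectin, a hormone of fat cells, at 12 µg/ml for 18 h, and untreated macrophages had not (the RNA extraction note in the labels gives the dose in mg/ml, the other labels in µg/ml). All cells had been moved to medium with 0.1% serum beforehand, and the labels do not say whether CSF-1 was present during the treatment. Both RNAs of a replicate were hybridised together on an Agilent 2-colour array, 3 arrays in all. Treated RNA carried Cy3 and untreated RNA Cy5 on replicates 1 and 3, and the dyes were swapped on replicate 2. The arrays are biological replicates by their labels, which give no number of mice, so the p-values measure the spread between these samples.

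CSF-1 (M-CSF) binds the receptor tyrosine kinase CSF1R, which keeps macrophages alive and which marks the lineage. CSF-2 (GM-CSF) binds a specific alpha chain, CSF2RA, paired with the common beta chain CSF2RB, and activates JAK2 and STAT5. Mice carry a second beta chain gene, Csf2rb2, whose product serves the interleukin-3 receptor. CSF-3 (G-CSF) binds CSF3R, best known from neutrophils and their precursors.

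Treated channels had 43.9% to 47.5% of all probes well above background and untreated channels 53.4% to 54.3%. Ratios were normalized with loess, which gave a median log2 ratio of -0.17 over all tested genes. All 7 measured markers of macrophages were well above background in all 6 channel readings (Cd68 had no named probe), Csf1r among them. The threshold for a call was 0.05 for the limma p, adjusted by Benjamini-Hochberg over the tested genes. By that rule 70.6% of all tested genes were called, 24.5% higher and 46.1% lower, so a call by itself sets no gene apart. With median centring as the normalization the median of all genes was -1.03 and no gene passed the threshold (5315 did at an unadjusted p under 0.05). Every call below was thus lost with median centring and depends on how the dyes were normalized. By the scanner software's own dye-normalized ratio, 3669 genes were called higher and 5525 lower. All 3 arrays lay on 1 slide.

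Csf1r fell most of the members, and the ligand genes moved in different directions. Csf1r was lower in treated macrophages on all 3 of its probes, and Csf2rb2 was lower on both of its probes. Csf1 fell on its brightest probe and, after loess, had positive ratios on the other probes. Csf2 and Csf3 were higher but dim, and Csf3r was slightly higher. Of the 8 genes, 3 were called higher and 4 lower (all tested genes: 24.5% and 46.1%), while Csf2ra was not called. Csf2 and Csf3, among the higher, are the ones that the filter passed through treated cells alone.

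**Figure D1:**
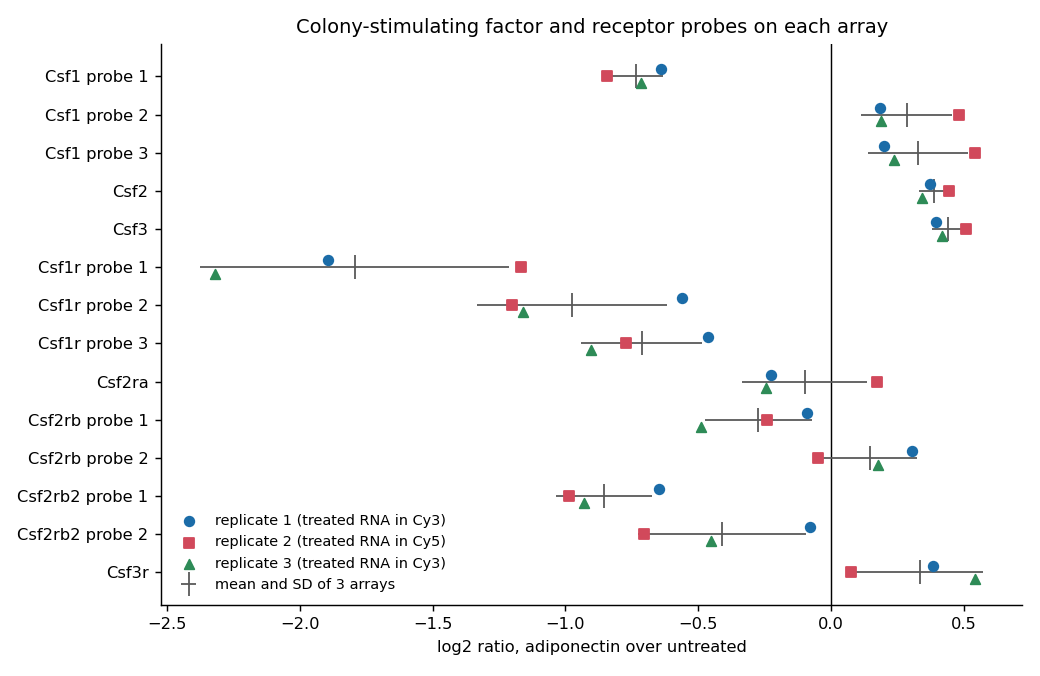
Log2 ratio of adiponectin-treated over untreated macrophages (x axis) for each of the 14 probes, ordered by role, with probe 1 the brightest of its gene. Symbols are the 3 arrays, and the grey tick and bar are their mean and SD (n = 3). All Csf1r and Csf2rb2 points lie below 0, whereas the Csf1 probes lie on both sides of it.

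After loess, the ligand gene Csf1 gave opposite answers with different probes. The brightest probe, which the array annotates to transcript NM_007778, is printed 10 times on each array and is the one that represents the gene. Its level was 10.6, 10.5 and 10.5 on the log2 intensity scale in treated macrophages on replicates 1, 2 and 3, against 11.2, 11.3 and 11.2 in untreated macrophages. The groups did not overlap, and the untreated level was the higher on every array. How many of all tested genes had groups without overlap was not counted, so its absence here and below sets no member apart. The log2 ratios were -0.64, -0.85 and -0.72, with a mean of -0.73 ± 0.084 (limma's moderated SE, n = 3 arrays; limma adjusted p = 7.3e-05), or 1.66-fold lower in treated cells. All 30 spots of this probe on the 3 arrays had a ratio below 0, between -0.94 and -0.51.

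The other 2 probes of Csf1 are annotated to another transcript, NM_001113530, and went the opposite way after loess. Probe 2 had log2 ratios of 0.18, 0.48 and 0.19, a mean of 0.28 ± 0.17 (SD, n = 3), and probe 3 had 0.20, 0.54 and 0.24, a mean of 0.33 ± 0.19. Where the dimmest probe stands for each gene, that is probe 3, Csf1 was called higher (limma adjusted p = 0.0128). Both probes were well above background in all 6 channel readings, and neither overlapped between the groups. On the 3 arrays probe 1 lay 0.82, 1.33 and 0.90 below probe 2, whereas probes 2 and 3 differed by at most 0.059 from each other. As the mean over its probes Csf1 was at -0.04 ± 0.076 (limma adjusted p = 0.642). With median centring the means of probes 1, 2 and 3 were all below 0, at -1.91, -0.80 and -0.71. Probes 2 and 3 then stayed above 0 on replicate 2 alone (0.41 and 0.46). Where each probe lies in its transcript was not analysed here. Opposite mean signs of any size, also close to 0, occurred in 25.4% of the 3391 genes with more than 1 measured probe. How many genes had probes as far apart as those of Csf1 was not counted.

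The promoter of Csf1 is shown because the gene belongs to the members that fell on their brightest probe, with a stretch that matches the NF-kB consensus in capitals. It comes from RefSeq (build GRCm38.p6, chr3:107760420-107760719, minus strand) and runs from 250 bases before to 50 bases after the gene's start.
Csf1 promoter: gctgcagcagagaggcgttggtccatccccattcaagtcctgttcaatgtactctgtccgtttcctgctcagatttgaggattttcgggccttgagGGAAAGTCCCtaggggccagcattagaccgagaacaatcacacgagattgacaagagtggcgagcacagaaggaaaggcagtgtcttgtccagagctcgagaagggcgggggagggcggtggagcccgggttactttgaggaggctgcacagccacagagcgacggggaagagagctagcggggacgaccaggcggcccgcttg
The match is on the strand opposite to the gene, and 8.5% of the 32851 promoters of that length held one on either strand. Promoters were at hand for 5 of the 8 members, all but Csf1r, Csf2rb and Csf3. The one of Csf3r also held a match, and those of Csf2, Csf2ra and Csf2rb2 had none in this window.

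Csf2, the gene of GM-CSF, was higher in treated macrophages at a signal close to the limit of detection. Its single probe is printed 10 times on each array. In treated cells 8, 10 and 5 of the 10 spots were well above background on replicates 1, 2 and 3, and in untreated cells 0 spots were on any array. The median spot signal in treated cells was 41.0, 96.0 and 43.5 scanner units over local backgrounds of 23.0, 63.5 and 22.3, against 69.3, 35.3 and 72.5 in untreated cells over backgrounds of 66.0, 23.0 and 65.5. The dyes differ in background, so each signal is read against its own. Above background, the treated spots had 12 to 27 units on replicate 1, 22 to 54 on replicate 2 and 14.5 to 29 on replicate 3, and the untreated spots had -5 to 12, 11 to 17 and 2 to 12.

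The log2 ratios of Csf2 were 0.37, 0.44 and 0.34, with a mean of 0.39 ± 0.081 (moderated SE, n = 3; limma adjusted p = 0.00255). All 30 spots had a ratio above 0, but they are repeats within 3 arrays. Among them is the outlier spot of replicate 3 that the mean leaves out. Since no untreated spot was well above background, an untreated signal was raised where it lay under a floor. The floor was the lowest signal of any probe well above background in the same channel. Against this level Csf2 in treated cells was 1.31-fold higher, the same as from the measured signal alone. That value is an estimate and not a minimum. The 95% interval of the mean log2 ratio ran from 0.20 to 0.57. The size depended on the handling of background: the mean log2 ratio was 1.37 when the normexp offset was 0, 2.93 by the scanner's own ratio and 0.68 in the authors' deposited table. On replicate 3, the 5 detected spots of 10 put Csf2 at the very edge of the filter, and without the 1 of them that the scanner marked as an outlier 4 of 9 were detected, which is under the 50% required, so that Csf2 would have failed the filter. In the fit without a filter on dim probes, where 15.8% of 20659 genes were called higher, the limma adjusted p was 0.00197.

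Csf3, the gene of G-CSF, was also higher in treated macrophages and also dim. Its probe has 1 spot per array, which was well above background in treated cells on all 3 arrays and in untreated cells on none. The spot had 17, 29 and 26 scanner units above background in treated cells, against -1, 8 and 15 in untreated cells. The log2 ratios were 0.40, 0.51 and 0.42, with a mean of 0.44 ± 0.081 (moderated SE, n = 3; limma adjusted p = 0.00124). Against an untreated level with the same floor, Csf3 in treated cells was 1.33-fold higher, which is also an estimate and not a minimum. The 95% interval of the mean log2 ratio of 0.44 ran from 0.25 to 0.63 for Csf3. Its mean log2 ratio was 1.63 when the normexp offset was 0, 3.09 by the scanner's own ratio and 0.78 in the authors' deposited table. Without the filter the limma adjusted p was 0.00103.

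**Figure D2:**
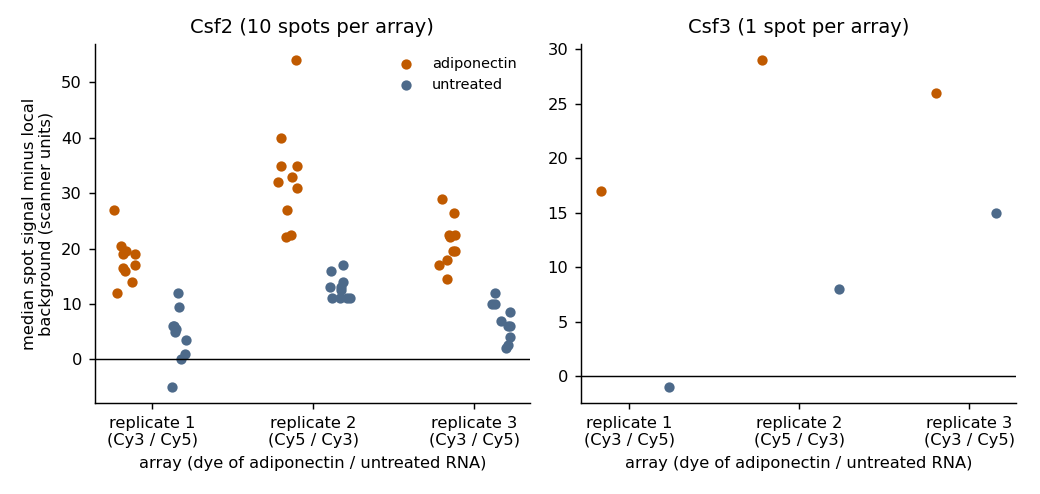
Median spot signal minus local background, in scanner units (y axis), of every spot of Csf2 (left) and Csf3 (right) on each array (x axis, with the dye of each RNA). On each array the treated spots of Csf2 lie at or above the highest untreated spot, at 12 units and up on replicate 1. The dyes have different gains, so heights do not give the fold.

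Csf1r, the CSF-1 receptor gene and a defining gene of macrophages, fell most of all members. Its brightest probe was at 15.3, 16.1 and 14.9 on the log2 intensity scale in treated macrophages, against 17.2, 17.3 and 17.2 in untreated macrophages. The untreated samples lay close together, while the treated ones spread over more than 1 log2 unit. The log2 ratios were -1.89, -1.17 and -2.32, with a mean of -1.79 ± 0.18 (moderated SE, n = 3; limma adjusted p = 3.69e-05), or 3.46-fold lower in treated cells. By this probe, 2.05% of all tested genes had a mean ratio this low or lower. With median centring its ratios were -3.77, -0.058 and -4.38, so the ratio was close to 0 on the array with swapped dyes. Under median centring other bright members also split by dye orientation. Csf2ra was at -2.05, 0.87 and -2.28, and Csf3r at -1.45, 0.84 and -1.50, whereas the dim Csf2 had similar ratios on all arrays (0.57, 0.47 and 0.54).

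The dimmer probes of Csf1r, all annotated to the same transcript NM_001037859, gave smaller falls. Probe 2 had log2 ratios of -0.56, -1.20 and -1.16 (mean -0.97 ± 0.36, SD, n = 3) and probe 3 had -0.46, -0.77 and -0.91 (mean -0.71 ± 0.23). The mean over the probes was -1.16 ± 0.10 (limma adjusted p = 2.1e-05). Replicate 2, the array with swapped dyes, had the smallest fall on probe 1 but the largest on probe 2. With a dye term the brightest probe was at -1.64, with a dye coefficient of 0.47 that was not called (limma adjusted p = 0.16).

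The other macrophage markers moved with Csf1r. All 6 of them that were measured were called lower (limma adjusted p at most 0.000246), beside 46.1% of all tested genes. Their log2 ratios were -0.80 or lower. Their summed intensity ranged from 52930 to 71694 in treated samples, against 129366 to 144152 in untreated samples. Their part in the fall of Csf1r was not tested. In bulk RNA, fewer cells of a type and less RNA per cell cannot be told apart. Of the listed neutrophil markers, 7 of 8 were measured, with 3 called higher and 3 lower (all tested genes: 24.5% higher and 46.1% lower). For dendritic cells 4 of 7 were, with 1 called higher, and for fibroblasts 4 of 7, with 3 called higher. For endothelial cells 4 of 5 were measured and for T and NK cells 3 of 8, each with 1 called higher and 1 lower. For B cells 2 of 6 were measured, with 1 called lower, and for mast cells 1 of 6, called higher. The fibroblast markers summed to 534 to 603 in treated samples, against 406 to 439 in untreated samples, and their part in the values of the ligand genes was not tested.

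Of the beta chain genes, Csf2rb2 fell and Csf2rb depended on the probe. Csf2rb2 was at 13.8, 13.7 and 13.6 on the log2 intensity scale in treated macrophages, against 14.5, 14.7 and 14.5 in untreated macrophages, with no overlap. Its log2 ratios were -0.65, -0.99 and -0.93, with a mean of -0.85 ± 0.095 (moderated SE, n = 3; limma adjusted p = 5.86e-05), or 1.81-fold lower in treated cells. The dimmer probe gave -0.08, -0.70 and -0.45 (mean -0.41 ± 0.31, SD, n = 3), a fall on all 3 arrays that was smallest on replicate 1.

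The promoter of Csf2rb2 is shown because this gene fell most among the members with a promoter at hand. It is from RefSeq (GRCm38.p6, chr15:78305672-78305971, minus strand), with the letters GAGGAA, the core bound by the myeloid factor PU.1, in capitals on either strand.
Csf2rb2 promoter: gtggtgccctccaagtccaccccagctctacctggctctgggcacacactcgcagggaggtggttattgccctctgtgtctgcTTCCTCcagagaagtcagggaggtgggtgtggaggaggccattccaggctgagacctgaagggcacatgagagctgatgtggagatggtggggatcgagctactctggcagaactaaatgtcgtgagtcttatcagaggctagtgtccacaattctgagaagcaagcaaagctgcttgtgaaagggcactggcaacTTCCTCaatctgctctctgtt
It held 2 such stretches, the first starting at base 84 of the window and both on the opposite strand, and 28.3% of all promoters held at least 1. The promoters of Csf2ra (2 stretches) and Csf3r (1 stretch) held GAGGAA too. Whether the motif had a part in any of these values was not tested. The AP-1 motif TGANTCA was in 7.8% of all promoters and in none of the 5.

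Csf2rb, the common beta chain of the receptors for GM-CSF, interleukin-3 and interleukin-5, changed little. The brightest probe was at 14.1, 13.9 and 13.7 on the log2 intensity scale in treated macrophages, against 14.2, 14.2 and 14.2 in untreated macrophages. The log2 ratios were -0.09, -0.24 and -0.49, with a mean of -0.27 ± 0.098 (moderated SE, n = 3; limma adjusted p = 0.0328). The call was lost with the sign kept under 8 of 15 alternatives, among them leaving out replicate 2 (-0.29, limma adjusted p = 0.0517) or replicate 3 (-0.17, limma adjusted p = 0.228) and centring on the tested genes (-0.10, limma adjusted p = 0.339). The dimmer probe gave 0.31, -0.05 and 0.18 (mean 0.14 ± 0.18, SD, n = 3), with groups that overlapped, so under that alternative the sign turned and the call was lost as well (limma adjusted p = 0.192). Csf2rb and Csf2rb2 are closely related copies, and how far a probe of one also binds RNA of the other was not tested.

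Csf2ra, the alpha chain that binds GM-CSF, was not called. It was at 14.5, 14.7 and 14.5 on the log2 intensity scale in treated macrophages and at 14.7, 14.5 and 14.7 in untreated macrophages. The samples overlapped, and the sign went with the dye orientation: the log2 ratios were -0.23 and -0.25 on replicates 1 and 3 and 0.17 on replicate 2. The mean was -0.10 ± 0.10 (moderated SE, n = 3; limma adjusted p = 0.412), with a 95% interval from -0.34 to 0.14. Without replicate 2 it was at -0.24 (limma adjusted p = 0.0406), and centring on the tested genes turned the sign (0.070).

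Csf3r, the G-CSF receptor gene, was slightly higher in treated macrophages. It was at 15.2, 15.0 and 15.2 on the log2 intensity scale in treated cells, against 14.8, 14.9 and 14.7 in untreated cells, with no overlap. The log2 ratios were 0.38, 0.07 and 0.54, with a mean of 0.33 ± 0.10 (moderated SE, n = 3; limma adjusted p = 0.0192), or 1.26-fold. On replicate 2 the rise was close to 0, and the call was lost without replicate 1 (0.31, limma adjusted p = 0.0906) and without replicate 3 (0.23, limma adjusted p = 0.137). With median centring the sign turned, to -0.70, and by the scanner's own ratio the call was lost (0.28, limma adjusted p = 0.0788). Of 7 measured markers of neutrophils (Ly6g had no named probe), 3 were called higher and 3 lower, beside 24.5% and 46.1% of all tested genes. Their summed intensity was 26465 to 41772 in treated samples, against 25060 to 29058 in untreated samples. Their part in the value of Csf3r was not tested.

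**Figure D3:**
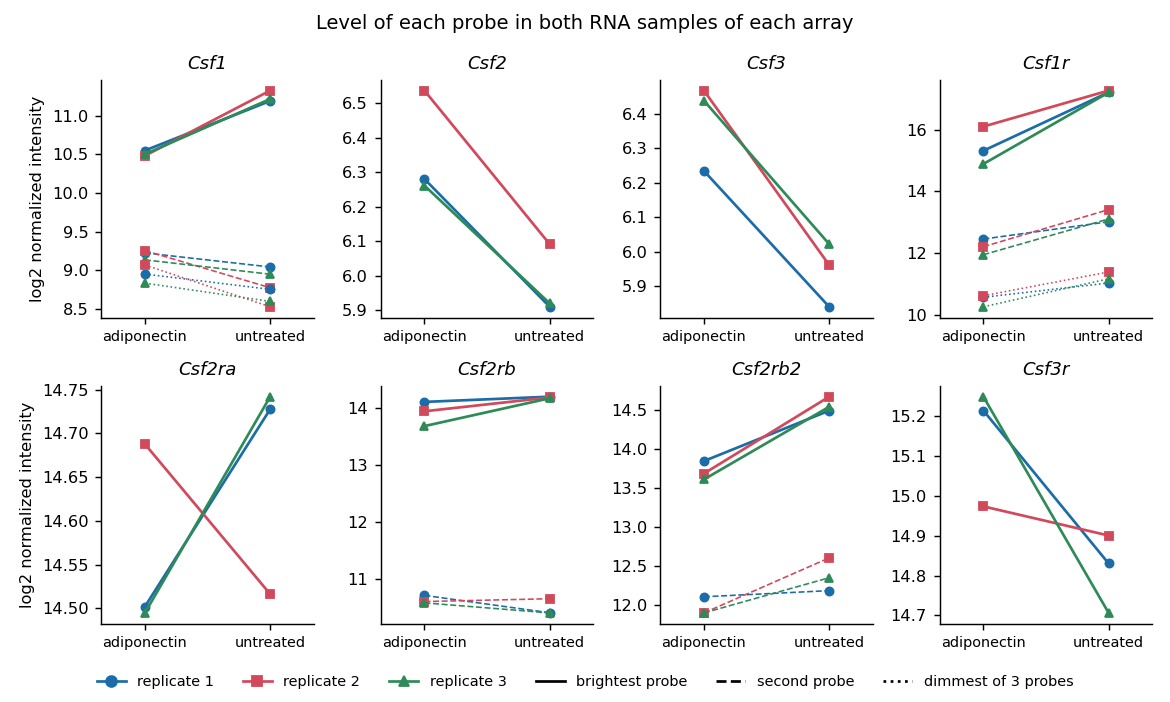
Normalized log2 intensity (y axis, a separate scale in each panel) of every probe in treated (left) and untreated (right) RNA, with a line for each array. The Csf1r lines rise towards the untreated side on all probes, and the 3 Csf2ra lines cross.

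Of 11 listed cytokines and receptors of the same structural families, 8 were measured, 1 was called higher and 2 lower, with a median log2 ratio of 0.03, beside 24.5% higher, 46.1% lower and a median of -0.17 over all tested genes. Il34, the other ligand of CSF1R, was at 0.31, 0.19 and 0.34 on the 3 arrays, with a mean of 0.28 ± 0.082 (limma adjusted p = 0.0141). That call was lost without replicate 1 and without replicate 3, and the value was 0.82 when the normexp offset was 0 and 1.32 by the scanner's own ratio. Kit, the receptor of stem cell factor, was at -0.79 ± 0.093 (limma adjusted p = 8.65e-05), or -1.22 by the scanner's own ratio. Flt3l, the ligand of the receptor FLT3, was at -0.51 ± 0.084 (limma adjusted p = 0.000634). Il3ra, the alpha chain of the interleukin-3 receptor, was at 0.48, -0.10 and 0.38 on the 3 arrays. Its mean of 0.25 was not called, and neither were Flt3 (0.08), Il5ra (0.04) and Kitl (-0.07). Il3ra was called higher without replicate 2, and its sign turned with median centring (-0.87). After centring on the tested genes, Il3ra and Flt3 were called higher. Il3, Il5 and Thpo did not pass the filter on dim probes.

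Genes of receptor signalling moved both ways. Of 25 listed genes, 24 were measured, 9 were called higher and 9 lower, with a median of 0.02 (all tested genes: 24.5%, 46.1% and -0.17). Stat5a, a transcription factor that GM-CSF activates, rose by 2.13 ± 0.080, the adaptor gene Gab2 by 1.53 ± 0.11 and Stat3, a factor downstream of G-CSF, by 1.40 ± 0.10 on the log2 scale. When the normexp offset was 0, Gab2 stood at 2.31, and by the scanner's own ratio at 2.50. The lowest were Inpp5d, a lipid phosphatase that restrains growth factor signals (-1.61 ± 0.087), Tyrobp, an adaptor that works with CSF1R (-1.17 ± 0.093), and the kinase subunit gene Pik3cd (-0.93 ± 0.083). The limma adjusted p of these genes was at most 1.63e-05.

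Feedback and target genes ranged from -2.79 to 3.30. Of 19 listed and measured genes, 9 were called higher and 5 lower, with a median of 0.28 (all tested genes: 24.5%, 46.1% and -0.17). The suppressor genes Socs3 and Cish, which STAT factors induce, rose by 3.30 ± 0.085 and 2.35 ± 0.080, and Dusp1, a phosphatase of MAP kinases, by 2.53 ± 0.11. Ccnd1, the cyclin that growth factors induce in the G1 phase, fell by 2.79 ± 0.11 on the log2 scale. Fos, an early response gene, was at -1.08 ± 0.092. The limma adjusted p of these genes was at most 1.27e-05.

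Transcription factors that act on myeloid receptor genes also split. Of 12 listed and measured, 7 were called higher and 3 lower, with a median of 0.52 (all tested genes: 24.5%, 46.1% and -0.17). Cebpb rose by 2.64 ± 0.091, Gfi1, a repressor, by 2.20 ± 0.090, and Runx1 by 2.10 ± 0.088, although the dimmer probe of Runx1 gave -0.51. When the normexp offset was 0, Gfi1 stood at 3.53, and by the scanner's own ratio at 4.23. Maf (-2.66 ± 0.11), Fli1 (-2.37 ± 0.14) and Cebpe (-1.38 ± 0.084) fell, and Cebpe stood at -2.18 by the scanner's own ratio. The limma adjusted p of these genes was at most 1.93e-06. Spi1, which encodes PU.1, rose by 0.79 ± 0.13 (limma adjusted p = 0.000523), and its sign turned with median centring (-0.39).

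Among inducers of ligand transcription, 9 of 11 listed genes were measured, with 4 called higher and 3 lower (all tested genes: 24.5% and 46.1%). Junb, an AP-1 member, rose by 2.07 ± 0.12, and the NF-kB subunit genes Nfkb2 and Relb by 2.02 ± 0.092 and 1.00 ± 0.10, while the sign of Relb turned with median centring (-0.14). Nfatc2 (-2.49 ± 0.084), Nfatc1 (-1.77 ± 0.092) and Cebpd (-1.25 ± 0.083) fell, and the dimmer probes of Nfatc2 and Nfatc1 gave -0.17 and -0.45. The limma adjusted p of these genes was at most 3.36e-05, and the median of that list was 0.29.

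Of 12 listed genes of shedding and mRNA turnover, 11 were measured, with a median of 0.15. Of these, 5 were called higher and 3 lower (all tested genes: 24.5% and 46.1%). Zfp36, which encodes tristetraprolin, a protein that destabilizes Csf2 mRNA, rose by 2.41 ± 0.080. Zc3h12a, a ribonuclease of cytokine mRNAs, rose by 2.00 ± 0.084, and Zfp36l2 by 0.71 ± 0.080, with a sign that turned with median centring (-0.36). Zfp36l1 fell by 2.12 ± 0.083 on the log2 scale, and Adam10, a membrane protease, by 1.27 ± 0.10. Rc3h1, an RNA-binding repressor, was at -0.52 ± 0.079, with its dimmer probe at 0.044. The limma adjusted p of these genes was at most 0.000429. Adam17, the protease that sheds CSF1R, was at 0.088 and was not called. With median centring the medians of the 6 lists of relatives, signalling, targets, transcription factors, inducers and turnover were all below 0, between -1.09 and -0.17, beside -1.03 over all genes.

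**Figure D4:**
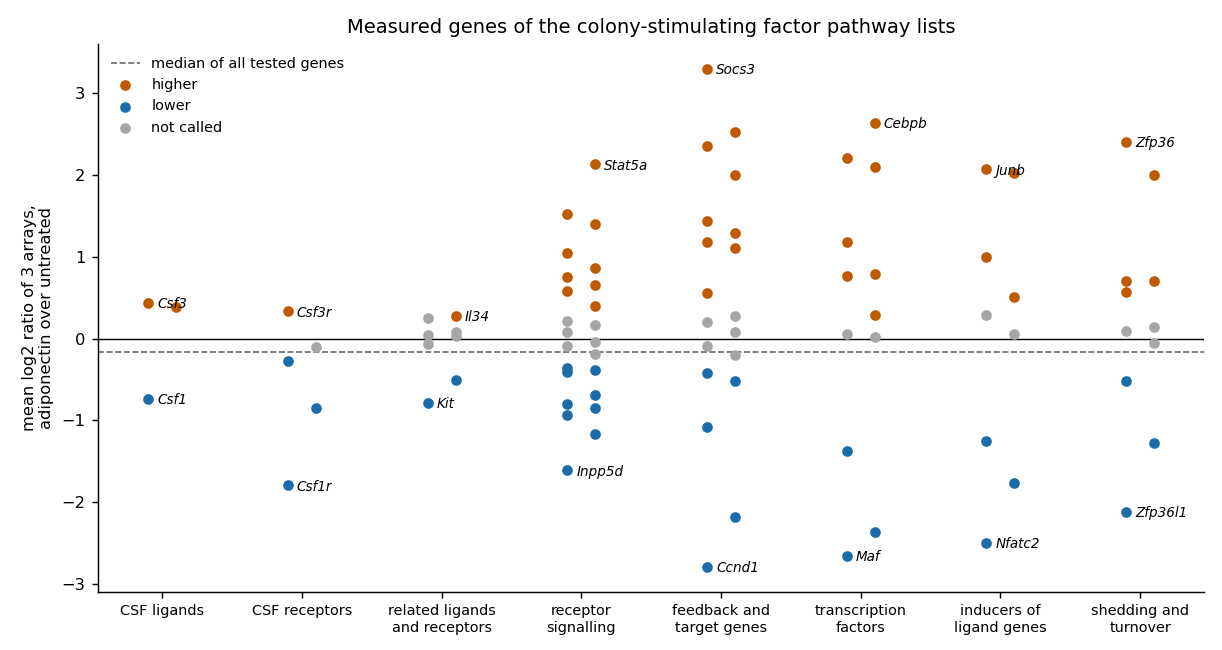
Mean log2 ratio of 3 arrays, adiponectin over untreated (y axis), for each measured gene of the 8 lists (x axis), coloured by the call in limma. The dashed line is the median of all tested genes at -0.17, and the highest and lowest gene of each list are named, from Socs3 at 3.30 to Ccnd1 at -2.79.

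For each called member, the genes whose 3 ratios lay nearest to its own were listed by Euclidean distance over the 3 arrays, with no function implied. Nearest to Csf1r were Xrcc6 (0.34), Ctss (0.39) and Dusp3 (0.39), at a larger distance than for any other called member. Nearest to Csf1 were Wdr25 (0.035), Ccz1 (0.039) and Arf3 (0.040), and nearest to Csf2rb2 Slc15a4 (0.060), Gm15455 (0.063) and Cyp20a1 (0.065). Nearest to Csf2 were Insrr (0.029), Mapk1ip1 (0.029) and Mob4 (0.032), and nearest to Csf3 Prss51 (0.020), Asxl2 (0.024) and Slc38a10 (0.032). Nearest to Csf3r were Pear1 (0.039), Myh14 (0.042) and Cep95 (0.052), and nearest to Csf2rb Prrc2b (0.052), Uso1 (0.054) and Nrde2 (0.056).

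**Figure D5:**
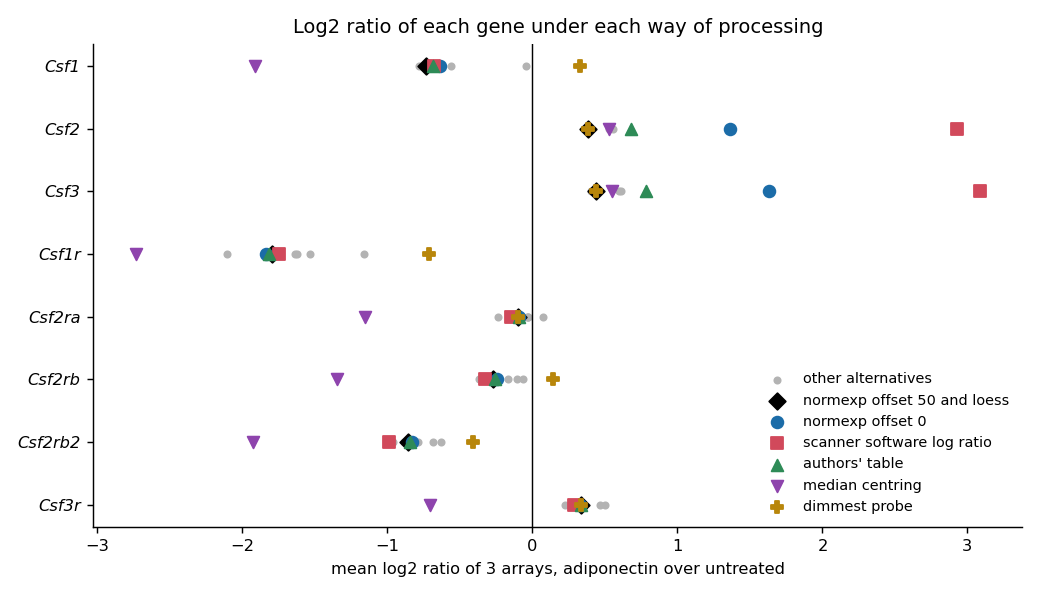
Mean log2 ratio, adiponectin over untreated (x axis), of each member under each way of processing the same 3 arrays. Csf2 and Csf3 spread furthest to the right, up to 2.93 and 3.09 by the scanner's own ratio, and median centring moves the other 6 genes to the left.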

How the data were processed

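Per the file headers, the 3 arrays were quantified with Agilent Feature Extraction 10.7.3.1, and the deposited intensity columns give the unnormalized median brightness of spots and of their local background for both dyes. Per the file headers, the scanner software also wrote a log10 ratio of dye-normalized Cy5 over Cy3 signal. The authors' deposited table holds log2 values, and the sources used here do not give its background handling. It correlated at r = 0.994, 0.990 and 0.992 across spots with loess ratios of uncorrected signals, set as treated over untreated, so its direction is that one, and its column medians were -0.00041, -0.0049 and -0.00064.

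Signals were corrected with normexp (offset 50) and normalized by loess in limma 3.58.1 under R 4.3.3. Spots with outlier flags, 323, 303 and 299 on the arrays, stayed out of the averaged ratios and levels but were counted in the filter on dim probes, and 0 spots were saturated. Spots of a probe were averaged. A channel reading counted where at least 50% of a probe's spots were well above background, and a probe was kept with at least 3 of 6 such readings. The brightest probe represented a gene. Probes were named through a RefSeq table by accession, which gave 27235 of 55681 probes 1 symbol. Ratios were tested against 0 with lmFit and eBayes (6.22 prior and 2 residual degrees of freedom), and the fit was tested on simulated data. Levels per channel followed Aquantile scaling. With 2 arrays of one dye orientation and 1 of the other, a dye effect was reduced but not cancelled. Array number limits the precision.

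The members and lists were chosen with earlier results of these data known. Named from each pathway list were up to 3 called genes with the highest and 3 with the lowest ratio, all measured relatives of the receptor families, and the 3 nearest genes of each called member. Some genes that this rule names are not reported here. Spi1 and Adam17 were named after their values were seen. Alternatives covered background, normalization, centring, probe choice, filter, dye and left-out replicates. The slide as a block was not run, since all arrays share 1 slide.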

Additional observations from a re-analysis of the deposited data

How the results depend on the processing

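With a normexp offset of 50 and loess, 3231 genes were called higher and 6074 lower, of which members made up 3 and 4. Median centring in place of loess, which moves the median of all genes to -1.03, left 0 genes and 0 members called in either direction in limma (5315 genes at an unadjusted p under 0.05). Csf1 was then at -1.91, Csf1r at -2.74, Csf2 at 0.53, Csf2rb at -1.35, Csf2rb2 at -1.92, Csf3 at 0.55 and Csf3r, with its sign turned, at -0.70. The lower share of calls was 65.3%, and 51.0% after centring on the tested genes, where Csf2rb was at -0.10 and Csf2ra turned to 0.070. Csf2rb was past the threshold neither with a normexp offset of 0 (-0.25), nor in the scanner software's log ratio (-0.33), nor in the authors' table (-0.26), and Csf3r was not in the scanner software's log ratio (0.28). As the mean over probes, Csf1 was at -0.042 and Csf2rb at -0.065, both without a call, which left 2 members lower. With the dimmest probe, an alternative chosen after seeing the data, Csf1 turned to 0.33 and Csf2rb to 0.14, and 2 members were lower. With all 6 readings required well above background, Csf2 and Csf3 were not tested and 1 member was higher. Requiring over 50% of spots, also chosen after seeing the data, left Csf2 untested.

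Leaving out 1 replicate each gave -0.78 to -0.68 for Csf1, -2.10 to -1.53 for Csf1r, 0.36 to 0.41 for Csf2, -0.24 to -0.027 for Csf2ra, -0.37 to -0.17 for Csf2rb, -0.96 to -0.79 for Csf2rb2, 0.41 to 0.46 for Csf3 and 0.23 to 0.46 for Csf3r. Members called ranged from 2 to 3 higher and 3 to 4 lower, and genes from 2762 to 3149 higher and 5368 to 6142 lower. The cause of these differences was not tested beyond what each alternative changes. The size of the Csf2 and Csf3 ratios moved with the background handling, under which both kept their calls.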
